A study of Homo sapiens with 24 samples.

Results

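The small nucleolar RNAs (snoRNAs) and small Cajal body RNAs (scaRNAs) of heated and irradiated head and neck squamous cell carcinoma (HNSCC) spheroids are described here. Of 57500 genes in the count tables, 992 are annotated as snoRNA or scaRNA in GENCODE v29, and 356 of these had at least 1 count. The 80 members were selected on measured values: each had raw counts summing to at least 60 over the 24 libraries. These totals are given as a description, with no test. The members just inside the limit were SNORA80E with 60 counts, SNORD51 with 62 and the gene RF01241 on chromosome 3 with 63. SNORA69 with 57 counts, SNORA84 with 54 and SNORD19 with 53 fell just outside.

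FaDu (from a hypopharyngeal carcinoma) and SAS (from a tongue carcinoma) are established human HNSCC cell lines, here grown as spheroids for 4 days to a diameter near 400 µm. Each spheroid type had 4 groups of 3 libraries. Control spheroids received neither heat nor radiation. RT spheroids were irradiated once, FaDu with 7 Gy and SAS with 10 Gy. HT was hyperthermia at 42.5 °C for 60 min. HT + RT was the same heat followed by the same dose. RNA was collected 0.5 h after treatment, so the comparisons address early transcript changes after heat, radiation or both. The doses differ between the spheroid types, and each type is 1 cell line in mono-culture. Total counts per library ran from 15203484 to 29452514, with a median of 18378943.5, and the deepest library was FaDu HT + RT replicate 3.

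The squamous epithelial origin was checked with 10 markers (KRT5, KRT14, KRT6A, KRT17, KRT8, KRT18, CDH1, EPCAM, TP63, SFN), all of which passed the count filter in every comparison. Their summed level ran from 10610 to 16450 counts per 1000000 (CPM) over the libraries, and KRT17 in FaDu and KRT8 in SAS were the most abundant. Summed leukocyte markers (PTPRC, CD3E, CD68, LYZ) stayed between 1.18 and 2.81 CPM, nearly all of it CD68, and PTPRC had no count in any SAS group. Summed endothelial markers (PECAM1, VWF, CDH5) ran from 6.17 to 23.6 CPM. Of the fibroblast markers (COL1A1, COL1A2, PDGFRB, DCN), COL1A1 alone reached 1 CPM: its mean was 1.33 CPM in SAS control, 23.6 in SAS HT, 24.1 in SAS HT + RT and 41.9 in FaDu control. The COL1A1 rise in SAS HT had a log2 fold change of 4.18 (SE 0.277, edgeR adjusted p = 6.4e-07). COL1A2, PDGFRB and DCN had group means below 0.5 CPM, and any part of these cells in the results below was not tested.

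Most snoRNAs pair with pre-ribosomal RNA in the nucleolus. C/D box snoRNAs guide ribose methylation with the enzyme fibrillarin, and H/ACA box snoRNAs guide conversion of uridine to pseudouridine with dyskerin. scaRNAs do the same to spliceosomal RNAs in Cajal bodies. In human cells most of them are encoded in introns of host genes and are trimmed out of the intron after splicing, so the host transcript and the snoRNA start from the same precursor.

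By symbol the members fall into 36 C/D, 34 H/ACA and 4 Cajal body RNAs (SCARNA13, SCARNA12, SCARNA22, SCARNA21), and 6 were left unclassified because their names give no box class. A host was taken as the same-strand gene that overlaps the member, the one with the most counts where there were several. On this rule 64 members lie in a host intron, 12 overlap an exon of an annotated host transcript and 4 (SNORD3A, SNORD3B-1, U3, SNORA11F) have no host. Hosts of 55 members code for protein. Members are short, with a median length of 132 bases, and 70 are under 200 bases. All members together held 22999 counts, 0.00498% of the counts in the 24 libraries. The median total was 183.5, and the highest was 4143 for SNORD104. At the gene level a count on an intronic member can come from the mature RNA or from unspliced host RNA, and these cannot be told apart. Likewise, in bulk RNA fewer cells of a type and less RNA per cell cannot be told apart.

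The sequences below belong to SNORD14E, SNORD104, SNORA31 and SCARNA12. SNORD14E had the largest change from control among the C/D members that passed the usual count filter. SNORD104 held the most counts of all members, and SNORA31 the most of the H/ACA members. SCARNA12 is a Cajal body RNA that passed the test in FaDu HT + RT. Capitals mark the box letters found by search on the RNA strand: TGATGA within the first 30 bases and CTGA within the last 20 bases for C/D members, and ACA within the last 10 bases for SNORA31. In SCARNA12 all 3 were found and are marked, and its CTGA and ACA share 1 base.
SNORD14E: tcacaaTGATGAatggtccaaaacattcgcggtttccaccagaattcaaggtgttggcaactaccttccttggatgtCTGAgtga
SNORD104: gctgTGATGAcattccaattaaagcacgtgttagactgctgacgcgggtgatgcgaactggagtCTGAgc
SNORA31: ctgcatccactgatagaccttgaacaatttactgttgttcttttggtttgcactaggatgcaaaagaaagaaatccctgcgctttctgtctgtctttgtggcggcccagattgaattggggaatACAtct
SCARNA12: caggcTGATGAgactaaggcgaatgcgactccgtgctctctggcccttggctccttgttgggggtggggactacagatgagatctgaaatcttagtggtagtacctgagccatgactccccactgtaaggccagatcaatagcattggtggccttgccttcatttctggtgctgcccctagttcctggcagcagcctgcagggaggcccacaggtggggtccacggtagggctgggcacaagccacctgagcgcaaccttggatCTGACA

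These are the GENCODE v29 transcripts on GRCh38. SNORD14E lies at chr11:123058077-123058161 on the minus strand, in an intron of HSPA8. SNORD104 lies at chr17:64146083-64146152 on the plus strand, in an intron of the non-coding gene SNHG25. SNORA31 (chr13:45337480-45337609, minus strand) overlaps an exon of an annotated transcript of TPT1. SCARNA12 (chr12:6967337-6967606, minus strand) overlaps an exon of PHB2. Of the 36 C/D members, 24 held TGATGA and all 36 held CTGA in these windows, which do not overlap, and 25.2% of all 992 snoRNA and scaRNA genes held both. ACA stood in the last 10 bases of 32 of the 34 H/ACA members and of 40.2% of all 992 genes. Some members share sequence: SNORD62A and SNORD62B are identical over 86 bases, SNORD3A and SNORD3B-1 are 99.5% identical, SNORA22 and SNORA22B 92.8%, and SNORA71B and SNORA71D 90.3%. Reads of such copies could have been split or dropped in counting, so their values are uncertain.

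Counts on the members were higher after heat in FaDu spheroids and higher after radiation in both types. In FaDu control libraries the 80 members summed to a mean of 35.4 CPM (SD 2.02, n = 3), against 48.4 (SD 3.38) in RT, 75.5 (SD 15.1) in HT and 79.6 (SD 6.99) in HT + RT. In SAS the sums were 31.9 CPM (SD 4.32, n = 3) in control, 46.5 (SD 4.89) in RT, 33.5 (SD 1.92) in HT and 42.0 (SD 1.41) in HT + RT. No FaDu treated library overlapped the FaDu controls, whereas SAS HT (32.0 to 35.7 CPM) overlapped SAS control (27.0 to 35.1 CPM). These sums were not tested.

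**Figure D1:**
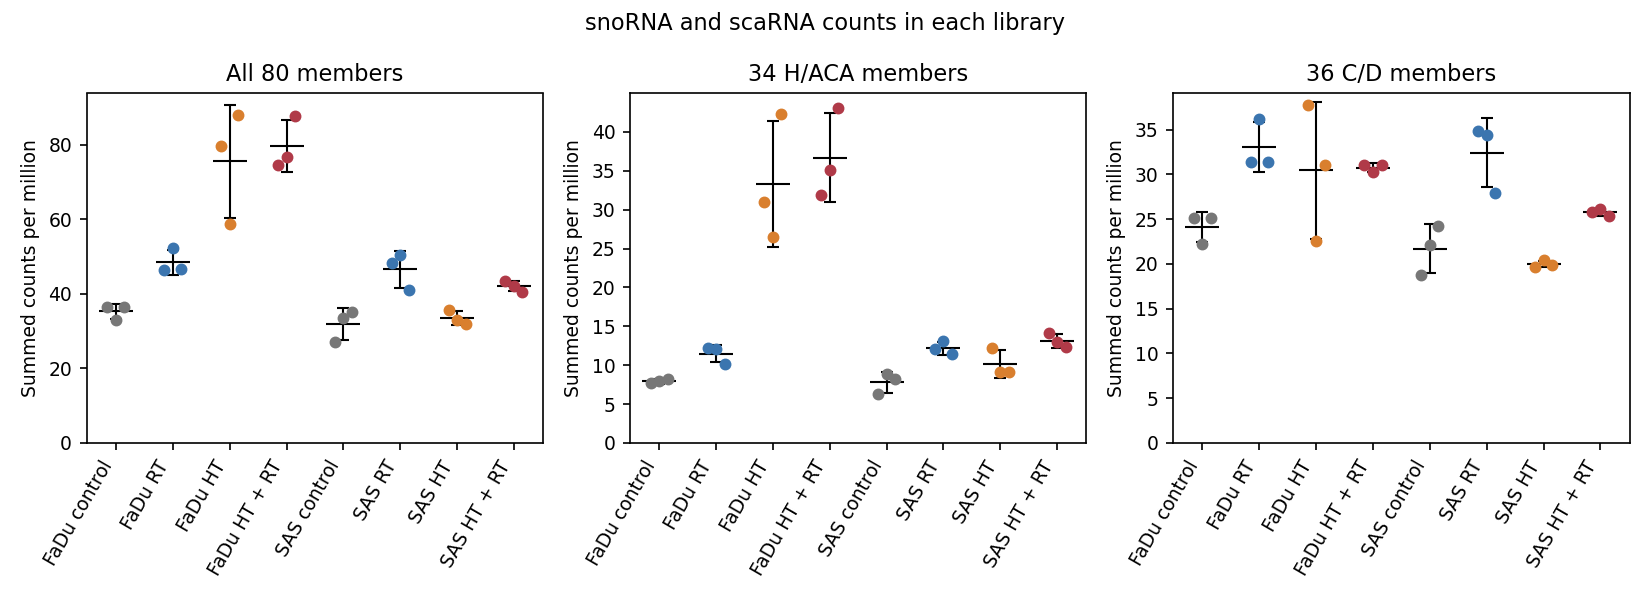
Summed CPM on all 80 members, on the 34 H/ACA members and on the 36 C/D members (vertical axes), in each library of the 8 groups (horizontal axes). Points are libraries and bars are the mean and SD of 3; the H/ACA sum averaged 7.94 CPM in FaDu control and 33.3 in FaDu HT, while the C/D sum averaged 24.2 and 30.4.

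The makeup of these sums differed by class and host. SNORD104 made up 41.4% of member counts in FaDu control, 40.8% in RT, 5.48% in HT and 5.14% in HT + RT. In SAS it made up 19.5% in control, 25.8% in RT, 10.9% in HT and 12.7% in HT + RT. The 41 members in protein-coding hosts other than ribosomal protein genes averaged 8.06 CPM in FaDu control (SD 0.726, n = 3) and 53.6 in FaDu HT (SD 11.2), and in SAS 14.2 in control and 20.4 in HT. In RT they averaged 10.9 CPM in FaDu and 17.2 in SAS, and in HT + RT 55.2 CPM in FaDu and 21.9 in SAS. The 14 members in ribosomal protein genes averaged 3.79 CPM in FaDu control, 7.10 in RT and 5.11 in HT, and in SAS 5.13, 8.84 and 3.13, and in HT + RT 6.68 CPM in FaDu and 6.36 in SAS. The 21 members in non-coding hosts averaged 21.1 CPM in FaDu control, 27.7 in RT and 13.5 in HT, and in SAS 10.6, 19.4 and 7.87, and in HT + RT 15 CPM in FaDu and 12 in SAS.

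Heat altered members in both spheroid types, and most altered members rose. A gene was called altered when edgeR's quasi-likelihood test gave an adjusted p under 0.05, over all genes tested, and an absolute log2 fold change over 1. In FaDu HT against control, 12 members rose (4.29% of all 15879 genes tested rose) and 1, SNORD104, fell (0.674% of all genes fell). In FaDu HT + RT against control, 17 rose (5.08% of 15896 genes) and 1, again SNORD104, fell (0.642%). In SAS HT, 5 rose (5.31% of 15000 genes) and 1, SNORD83A, fell (0.713%). In SAS HT + RT, 6 rose (5.76% of 14938 genes) and 1, SNORA11F, fell (0.596%). With the replicate number as a block, 16 members were altered in FaDu HT (5.84% of all genes), adding SCARNA12, SNORD60 and SNORD3A, and 21 in FaDu HT + RT (6.4%), adding SNORD60, SNORA71C and SNORD12B. The treated groups share their controls, so the HT and HT + RT counts are not independent. In FaDu 12 members were altered in both comparisons, and in SAS 5. The share of all genes altered in both is not given here, so these overlaps support no statement on the members.

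The usual count filter kept 29 and 35 of the 80 members in the FaDu HT and HT + RT fits, and 14 and 16 in the SAS fits. A member could pass it through the treated group alone, so the counts above support no statement on the members as a whole. A filter blind to the groups, chosen after the data were seen, kept every gene with 60 or more counts over the 24 libraries and so all 80 members. With it 20 members rose and 2 fell in FaDu HT (all genes: 4.40% and 0.582%), and 28 rose and 1 fell in FaDu HT + RT (5.17% and 0.593%). In SAS HT 9 rose and 2 fell (4.97% and 0.607%), and in SAS HT + RT 9 rose and 1 fell (5.57% and 0.532%). The median log2 fold change of the members was 0.91 in FaDu HT, 1.12 in FaDu HT + RT and 0.48 in FaDu RT, and 0.17 in SAS HT, 0.50 in SAS HT + RT and 0.54 in SAS RT, against -0.01 to 0.03 over all genes. The totals used to choose the members include the treated libraries, so these values describe the members and do not test a shift.

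Genes were also chosen, again after the data were seen, on the spheroid type not tested. That choice still counts heated libraries, in which several of the same members are high, so it is not free of the heat effect. Of 73 snoRNA and scaRNA genes with 30 or more counts in the SAS libraries, 16 rose and 2 fell in FaDu HT (all such genes: 3.90% and 0.582%), and 22 rose and 1 fell in FaDu HT + RT (4.61% and 0.6%). Of 91 with 30 or more counts in the FaDu libraries, 90 had a count in the SAS HT fit. Among these 9 rose and 2 fell in SAS HT (4.55% and 0.542%), and 9 rose and 1 fell in SAS HT + RT (5.10% and 0.502%).

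**Figure D2:**
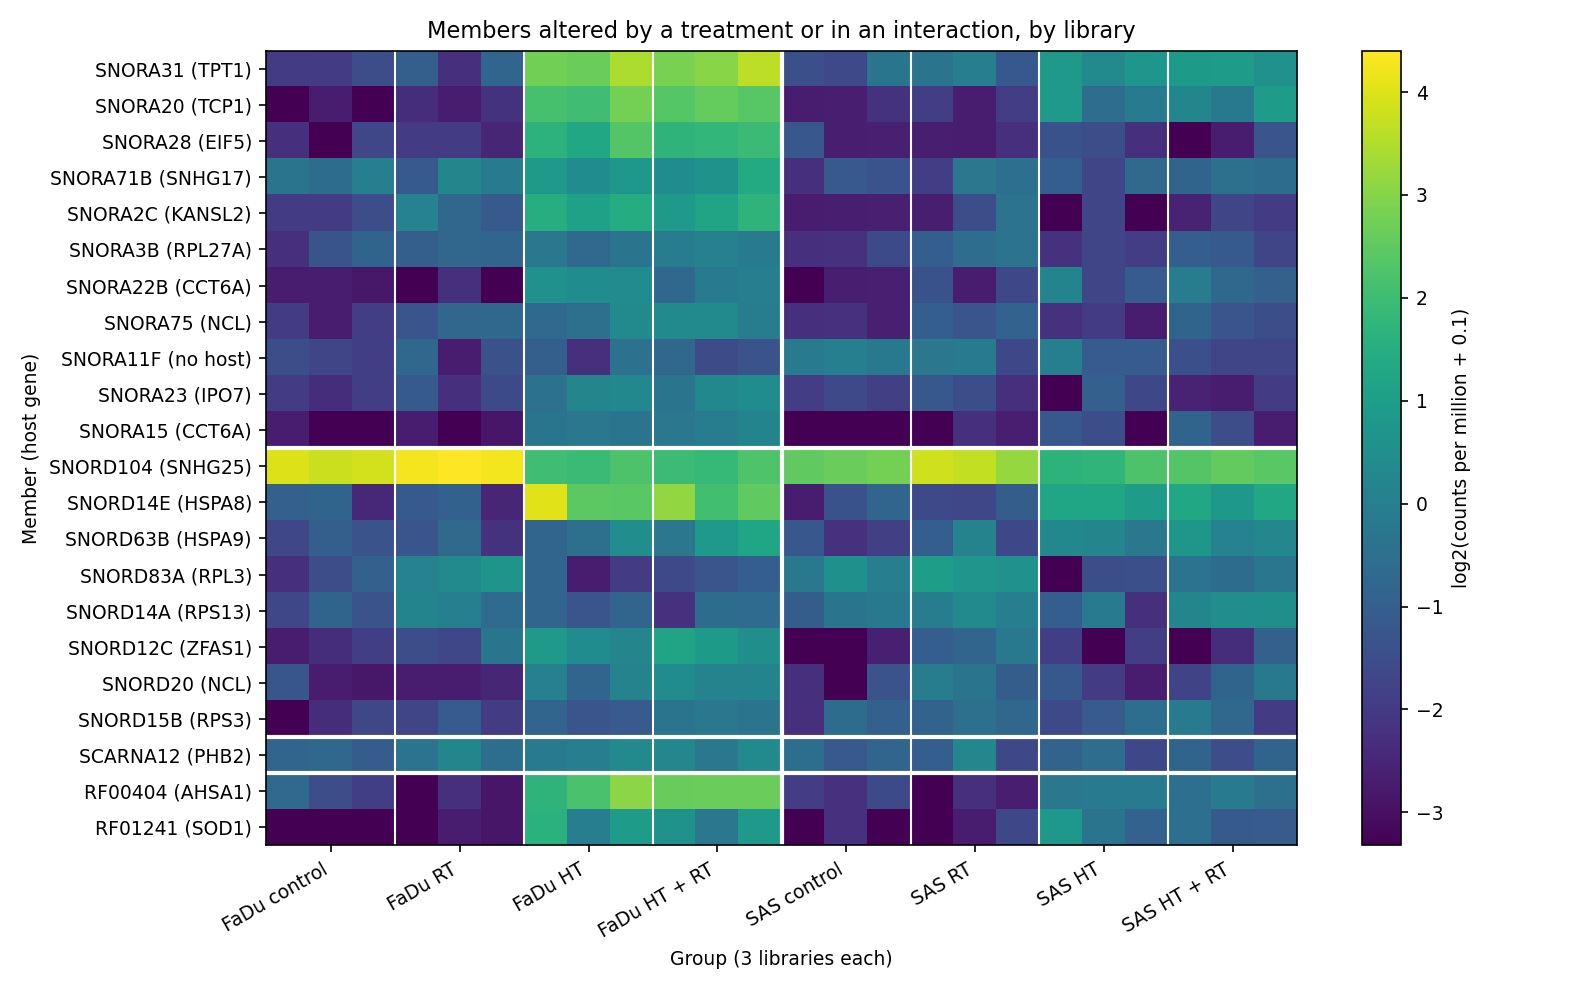
Level of the 22 members altered by a treatment or in an interaction (rows, with host gene, grouped as H/ACA, C/D, Cajal body and unclassified) in the 24 libraries (columns, 3 per group), as log2(CPM + 0.1). SNORA31, SNORA20 and SNORA28 are bright in the FaDu HT and HT + RT columns, and SNORD104 is brightest in the control and RT columns.

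Among the 34 H/ACA members, 8 of 13 tested rose in FaDu HT (4.29% of all genes rose) and 9 of 14 in FaDu HT + RT (5.08%). In SAS HT 2 of 5 tested rose (5.31%), and in SAS HT + RT 2 rose (5.76%) and 1 fell (0.596%) of 5. A member could pass the usual filter through the heated group alone, so the class counts here and below support no statement on a class. SNORA31, in the gene for translationally controlled tumor protein (TPT1), had 3, 3 and 6 counts in the FaDu control libraries, 8, 2 and 12 in RT, 115, 120 and 205 in HT, and 125, 128 and 377 in HT + RT. SAS libraries held 5, 4 and 12 counts in control, 12, 17 and 6 in RT, 30, 23 and 29 in HT, and 26, 35 and 27 in HT + RT. All heated libraries lay above all libraries without heat in both types, and the FaDu heated libraries lay above the SAS ones. Its log2 fold change in edgeR was 5.36 in FaDu HT (SE 0.365, adjusted p = 4.4e-05), 5.57 in FaDu HT + RT (SE 0.344, adjusted p = 1.3e-05), 1.91 in SAS HT (SE 0.427, adjusted p = 0.0067) and 2.07 in SAS HT + RT (SE 0.412, adjusted p = 0.0033).

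SNORA20 lies in TCP1, which encodes a subunit of the cytosolic chaperonin. It had 0, 1 and 0 counts in FaDu control, 2, 1 and 3 in RT, 75, 76 and 130 in HT, and 88, 94 and 158 in HT + RT. In SAS it had 1, 1 and 2 counts in control, 3, 1 and 3 in RT, 30, 11 and 15 in HT, and 16, 15 and 35 in HT + RT. The heated libraries of each type lay above all libraries of that type without heat. With 1 count in the FaDu controls, the FaDu HT ratio was 318, with an exact 95% counting interval of 56.6 to 12600, and the edgeR adjusted p was 7.6e-05. In SAS HT the log2 fold change was 3.67 (SE 0.669, edgeR adjusted p = 0.0019) and in SAS HT + RT 3.94 (SE 0.599, adjusted p = 0.00055).

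SNORA28, in the translation initiation factor gene EIF5, had 2, 0 and 5 counts in FaDu control, 3, 3 and 2 in RT, 53, 46 and 93 in HT, and 55, 54 and 114 in HT + RT. The SAS counts were 6, 1 and 1 in control, 1, 1 and 2 in RT, 5, 5 and 2 in HT, and 0, 1 and 6 in HT + RT. FaDu heated libraries lay far above the rest, and the SAS groups overlapped. In FaDu HT the log2 fold change was 4.92 (SE 0.574, edgeR adjusted p = 0.00079), and in SAS HT it had too few counts to be tested.

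SNORA2C, in KANSL2, had 3, 3 and 6 counts in FaDu control and 46, 39 and 50 in FaDu HT (log2 fold change 3.66, SE 0.338, edgeR adjusted p = 0.00024). FaDu RT had 19, 9 and 9 counts. The SAS libraries had 1, 1 and 1 counts in control, 1, 5 and 12 in RT, 0, 4 and 0 in HT, and 1, 4 and 3 in HT + RT. SNORA23, in the importin gene IPO7, had 3, 2 and 4 counts in FaDu control, 11, 20 and 21 in HT and 12, 18 and 38 in HT + RT, with log2 fold changes of 2.68 (SE 0.441, edgeR adjusted p = 0.0042) and 2.82 (SE 0.432, adjusted p = 0.0023). The chaperonin gene CCT6A holds 2 members. SNORA15 had 1, 0 and 0 counts in FaDu control and 12, 14 and 13 in HT, a ratio of 44.2 with a counting interval of 7.47 to 1790. SNORA22B had 1, 1 and 1 counts in FaDu control and 24, 24 and 23 in HT, a ratio of 26.8 with an interval of 8.80 to 133. Both passed the edgeR test in FaDu HT, with adjusted p of 0.002 and 0.00029.

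SNORA71B, in SNHG17, rose in FaDu HT by a log2 fold change of 1.11 (SE 0.296, edgeR adjusted p = 0.033), a call lost when any 1 of the 6 libraries was left out. In FaDu HT + RT it rose by 1.35 (SE 0.353, edgeR adjusted p = 0.028), a call lost without any 1 of the 3 FaDu controls or without FaDu HT + RT replicate 3. SNORA75, in the nucleolin gene NCL, rose in FaDu HT + RT by 3.01 (SE 0.447, adjusted p = 0.002), and SNORA3B, in RPL27A, by 1.53 (SE 0.438, adjusted p = 0.04), a call lost without any 1 of 5 of the 6 libraries and in DESeq2. SNORA11F has no same-strand host. It had 15, 16 and 13 counts in SAS control and 4, 4 and 4 in SAS HT + RT (log2 fold change -1.81, SE 0.417, edgeR adjusted p = 0.0078), while its SAS HT libraries, with 16, 7 and 7 counts, overlapped the controls.

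Among the 36 C/D members, 2 rose and 1 fell of 10 tested in FaDu HT (4.29% and 0.674% of all genes), and 5 rose and 1 fell of 15 in FaDu HT + RT (5.08% and 0.642%). In SAS HT 2 rose and 1 fell of 8 (5.31% and 0.713%), and in SAS HT + RT 3 of 10 rose (5.76%). The usual filter chose the members tested here too, so these counts support no statement on C/D members as a class. SNORD14E belongs to the U14 family, which acts in processing of pre-ribosomal RNA, and lies in HSPA8, the gene of the constitutive cytosolic heat shock cognate protein. It had 8, 9 and 2 counts in FaDu control, 7, 8 and 2 in RT, 280, 102 and 100 in HT, and 152, 66 and 171 in HT + RT. In SAS it had 1, 5 and 8 counts in control, 4, 4 and 7 in RT, 40, 43 and 33 in HT, and 35, 32 and 45 in HT + RT. Heated libraries lay above all others in both types, and FaDu HT replicate 1 stood above its group. The log2 fold change was 4.85 in FaDu HT (SE 0.644, edgeR adjusted p = 0.0015), 4.31 in FaDu HT + RT (SE 0.461, adjusted p = 0.00035), 2.98 in SAS HT (SE 0.458, adjusted p = 0.00062) and 3.00 in SAS HT + RT (SE 0.466, adjusted p = 0.00066).

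SNORD63B lies in HSPA9, which encodes the mitochondrial member of the same chaperone family. It had 4, 8 and 7 counts in FaDu control, 8, 12 and 24 in HT and 13, 27 and 68 in HT + RT. SAS spheroids had 6, 2 and 3 counts in control, 20, 20 and 14 in HT and 24, 19 and 21 in HT + RT. HT and control libraries met at 8 counts in FaDu and stayed apart in SAS. RT libraries had 6, 10 and 3 counts in FaDu and 7, 19 and 4 in SAS, so SAS RT overlapped SAS HT. SNORD63B rose in SAS HT (log2 fold change 2.23, SE 0.465, edgeR adjusted p = 0.0045), SAS HT + RT (2.55, SE 0.460, adjusted p = 0.0018) and FaDu HT + RT (2.39, SE 0.476, adjusted p = 0.008). In FaDu HT it had too few counts to be tested.

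SNORD12C, in the non-coding gene ZFAS1, had 1, 2 and 4 counts in FaDu control, 5, 4 and 18 in RT, 29, 24 and 20 in HT, and 38, 28 and 41 in HT + RT. Its log2 fold change was 3.53 in FaDu HT (SE 0.452, edgeR adjusted p = 0.0012) and 3.90 in FaDu HT + RT (SE 0.438, adjusted p = 0.00043). In SAS it had 0, 0 and 1 counts in control, 7, 9 and 14 in RT, 3, 0 and 3 in HT, and 0, 2 and 8 in HT + RT. The usual filter dropped it in the SAS comparisons, and without a filter it was altered in SAS RT. In FaDu HT + RT, SNORD20 in NCL rose by 3.03 (SE 0.560, adjusted p = 0.0056) and SNORD15B in RPS3 by 2.62 (SE 0.595, adjusted p = 0.015). SNORD15B lost this call without FaDu control replicate 2 or FaDu HT + RT replicate 3. SNORD14A, the other U14 member, in RPS13, rose in SAS HT + RT by 1.07 (SE 0.354, adjusted p = 0.045), a call lost when any 1 of the 6 libraries was left out.

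SNORD104 was called lower in FaDu HT and FaDu HT + RT, and SNORD83A in SAS HT only. SNORD104 had 300, 267 and 350 counts in FaDu control, 373, 395 and 486 in RT, 69, 71 and 88 in HT, and 67, 56 and 145 in HT + RT. SAS spheroids gave 104, 108 and 116 counts in control, 251, 247 and 161 in RT, 55, 62 and 85 in HT, and 74, 111 and 102 in HT + RT. The FaDu groups with heat lay below control and RT in every library, and SAS HT lay below SAS control, while SAS HT + RT overlapped it in raw counts. Over the 24 libraries it averaged 124.6 CPM per kilobase, SNORD14E 30.1 and SNORA31 20.9. In FaDu HT, SNORD14E at 105.8 and SNORA31 at 61.1 lay above SNORD104 at 59.0, and in FaDu HT + RT the values were 72.1, 70.4 and 57.5. The log2 fold change was -1.80 in FaDu HT (SE 0.139, edgeR adjusted p = 8.9e-05), -1.83 in FaDu HT + RT (SE 0.142, adjusted p = 5.3e-05), -0.74 in SAS HT (SE 0.195, adjusted p = 0.017) and -0.17 in SAS HT + RT (SE 0.155, adjusted p = 0.46).

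SNORD83A, in the ribosomal protein gene RPL3, had 14, 24 and 15 counts in SAS control, 34, 30 and 25 in RT, 0, 5 and 5 in HT, and 10, 11 and 14 in HT + RT. SAS HT lay below every other SAS library. Its log2 fold change in SAS HT was -2.40 (SE 0.601, edgeR adjusted p = 0.013). In FaDu it had 2, 5 and 10 counts in control, 19, 22 and 38 in RT, 8, 1 and 3 in HT, and 4, 5 and 12 in HT + RT. The FaDu HT counts were too few for a test of HT, and FaDu HT + RT overlapped control.

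Of the 4 Cajal body RNAs, 2 were tested in FaDu HT + RT and 1 rose (5.08% of all genes rose), SCARNA12 in the prohibitin gene PHB2. SCARNA12 had 9, 10 and 9 counts in FaDu control, 14, 17 and 22 in HT, and 19, 12 and 36 in HT + RT, with a log2 fold change of 1.19 in HT + RT (SE 0.327, edgeR adjusted p = 0.033) and 1.11 in HT (SE 0.335, adjusted p = 0.053). The HT + RT call was lost in DESeq2, without a filter, and without any 1 of 5 of the 6 libraries, while with the replicate block SCARNA12 was also altered in HT. In SAS its groups overlapped, with 11, 6 and 8 counts in control and 8, 11 and 4 in HT. SCARNA13, in SNHG10, had 19, 21 and 24 counts in FaDu control and 11, 14 and 12 in HT (log2 fold change -0.58, SE 0.282, adjusted p = 0.2). SCARNA21, in CHD3, had 2, 0 and 0 counts in FaDu control, 4, 6 and 11 in HT, and 14, 8 and 29 in HT + RT. The usual filter dropped it against control, and under the filter blind to the groups it rose in both. SCARNA22 had 94 counts in total and passed the usual filter in no comparison of a treatment with control.

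Of the 6 unclassified members, 2 of the 4 tested rose in FaDu HT (4.29% of all genes rose) and in FaDu HT + RT (5.08%). These 2, RF00404 and an RF01241 gene, are predicted genes named by their Rfam family. In SAS the 1 member tested, RF00404, rose in HT (5.31%) and HT + RT (5.76%). RF00404 lies in an intron of AHSA1, which encodes an activator of the HSP90 chaperone, 1646 bases before the next host exon downstream. It had 10, 5 and 4 counts in FaDu control, 0, 2 and 1 in RT, 54, 85 and 156 in HT, and 104, 99 and 192 in HT + RT. The SAS libraries had 3, 2 and 4 counts in control, 0, 2 and 1 in RT, 13, 15 and 15 in HT, and 9, 16 and 12 in HT + RT. Heated libraries lay above all others in both types. The log2 fold change was 4.11 in FaDu HT (SE 0.506, edgeR adjusted p = 0.001), 4.32 in FaDu HT + RT (SE 0.305, adjusted p = 3e-05), 2.18 in SAS HT (SE 0.461, adjusted p = 0.0049) and 2.02 in SAS HT + RT (SE 0.480, adjusted p = 0.0094).

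The RF01241 gene in an intron of SOD1, on chromosome 21, had 0 counts in all 3 FaDu controls, 51, 17 and 34 in HT, and 25, 12 and 51 in HT + RT. Against a floor of 3 counts over the control group it was at least 38.5-fold higher in FaDu HT and at least 28.6-fold higher in FaDu HT + RT (edgeR adjusted p = 0.0035 and 0.0016). In SAS it had 0, 2 and 0 counts in control and 29, 13 and 8 in HT, a ratio of 23.9 with a counting interval of 6.27 to 203, and the usual filter dropped it there. It rose in SAS HT under the filter blind to the groups. Floors and intervals cover counting error only.

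Most hosts of altered members moved less than the member. The members were selected for passing the fold threshold and the hosts were not. This difference therefore describes the pairs and supports no statement on members against hosts. Of the 13 altered members of FaDu HT, none had an altered host (4.97% of all genes were altered): host log2 fold changes ran from -0.67 for SNHG25 to 0.84 for HSPA8. Of the 18 in FaDu HT + RT none had an altered host either (5.72% of all genes), with a range of -0.76 to 0.99. In FaDu HT the hosts HSPA8, TCP1, TPT1, ZFAS1, SNHG17 and SOD1 rose with an edgeR adjusted p under 0.05 and missed only the fold threshold. Of all 15879 genes, 17.6% had an adjusted p under 0.05 in either direction. TPT1 had a log2 fold change of 0.44, TCP1 of 0.62, AHSA1 of 0.18, EIF5 of 0.05 and CCT6A of -0.04 in FaDu HT. SNORD60, altered in FaDu HT and HT + RT only with the replicate block, moved with its host: it had -1.50 (SE 0.534) and -1.31 (SE 0.482), and SNHG19 fell by -1.14 and -1.30. In SAS HT 1 of 6 hosts was altered (6.03% of all genes): AHSA1 rose by 1.14 (edgeR adjusted p = 1.6e-07), where RF00404 rose by 2.18. Over the 26 pairs of member and host tested in FaDu HT, Pearson's r of the log2 fold changes was 0.50, and over 12 pairs in SAS HT it was 0.62. These points share libraries, and several share a host. In FaDu HT they include members at 0 or 1 control counts, such as RF01241 in SOD1 (8.22) and SNORA20 (7.85). Such values depend on the prior count of the fit, and the usual filter chose the pairs, so r supports no conclusion.

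**Figure D3:**
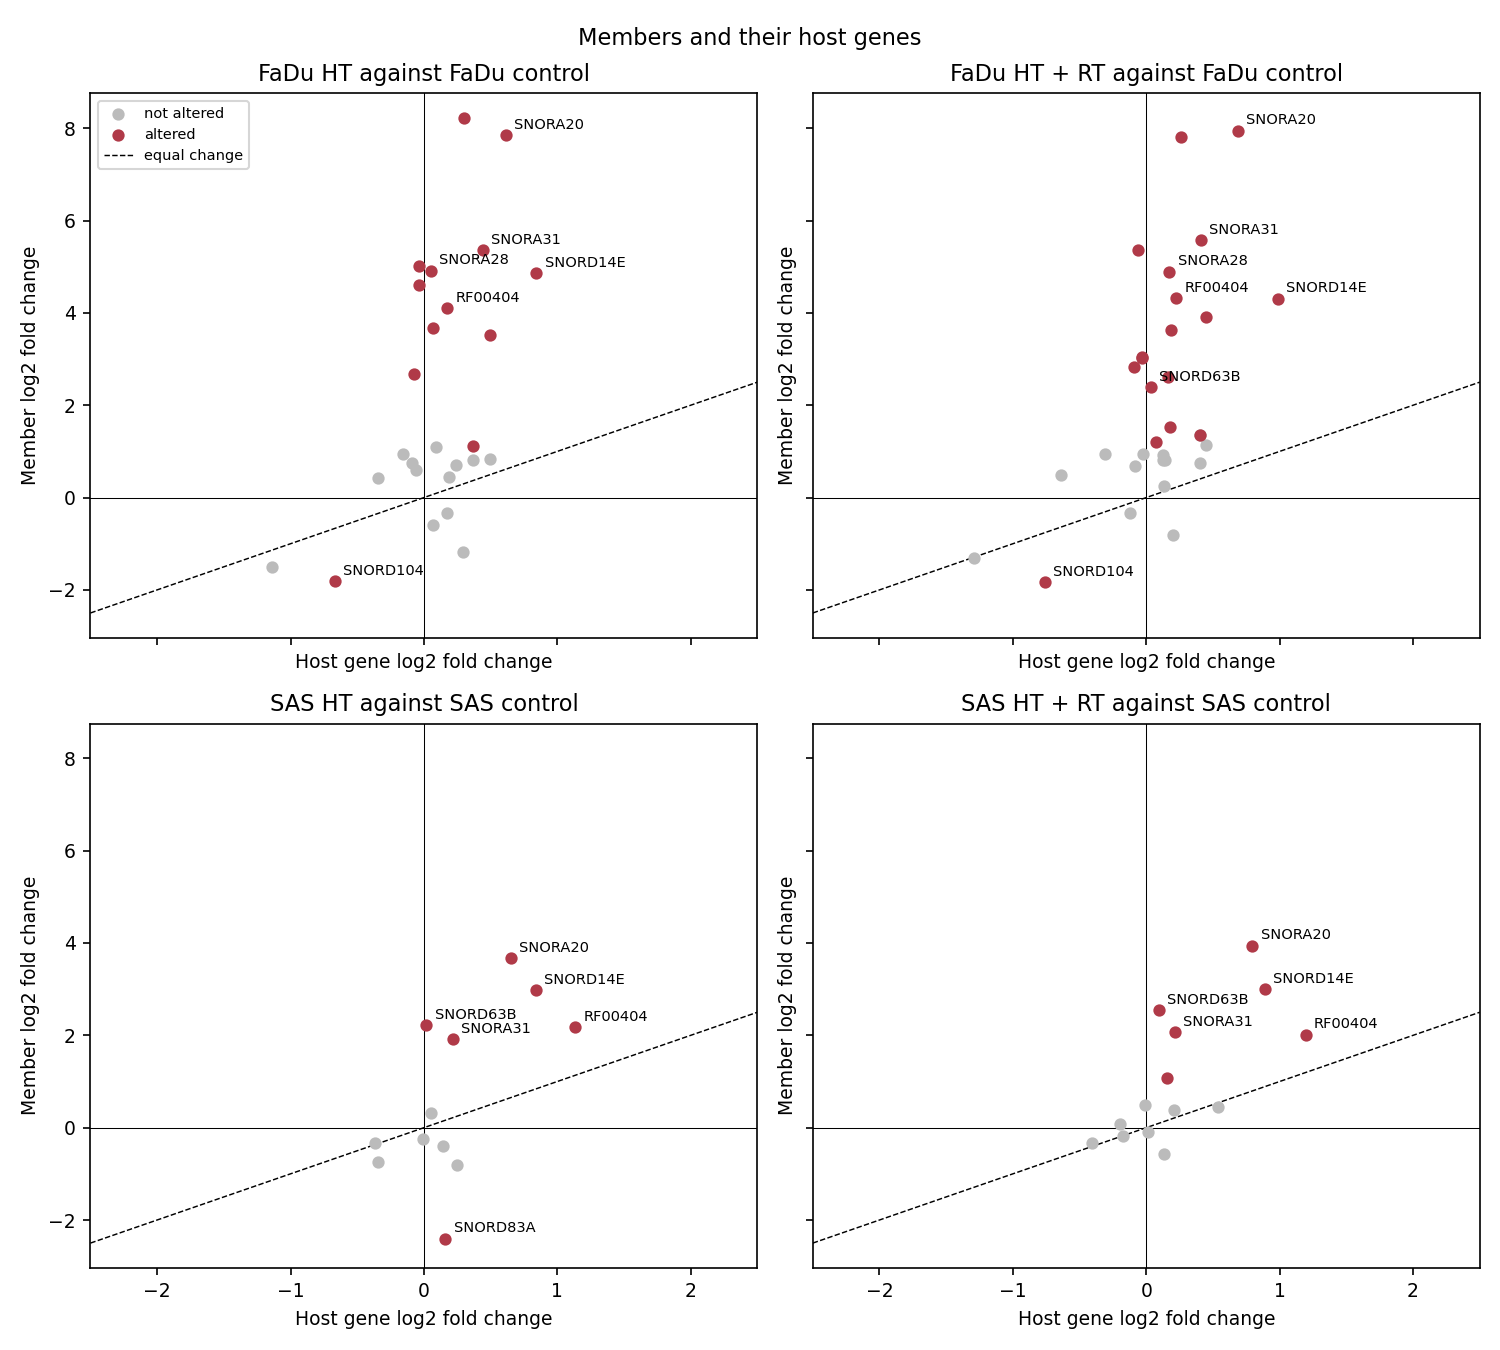
Log2 fold change of each member (vertical axis) against that of its host gene (horizontal axis) in the FaDu and SAS comparisons of HT and HT + RT with control, for pairs in which both passed the count filter. Red points are altered members, grey points are the others, and the dashed line marks equal change; in FaDu HT the red points run from -1.80 to 8.22 on the member axis and from -0.67 to 0.84 on the host axis, and values for members at or near 0 control counts depend on the prior count of the fit.

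The ratio of member to host counts shows the same counts per library and adds no separate support. SNORA31 held 1.52, 1.59 and 2.82 counts per 10000 TPT1 counts in the FaDu controls and 50.0, 50.2 and 85.9 in HT, against 0.713, 0.623 and 1.94 in SAS control and 4.27, 2.92 and 3.42 in SAS HT. SNORD14E held 1.90, 2.66 and 0.409 per 10000 HSPA8 counts in FaDu control and 42.1, 17.2 and 14.9 in HT. RF00404 held 14.8, 7.81 and 4.85 per 10000 AHSA1 counts in FaDu control, 84.7, 119 and 209 in HT, and 156, 154 and 156 in HT + RT. In SNORA31 and SNORD14E no heated library of either type overlapped its controls. SNORD104 outnumbered its host: it held 43500, 45300 and 36500 counts per 10000 SNHG25 counts in FaDu control and 15000, 18200 and 24400 in HT.

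**Figure D4:**
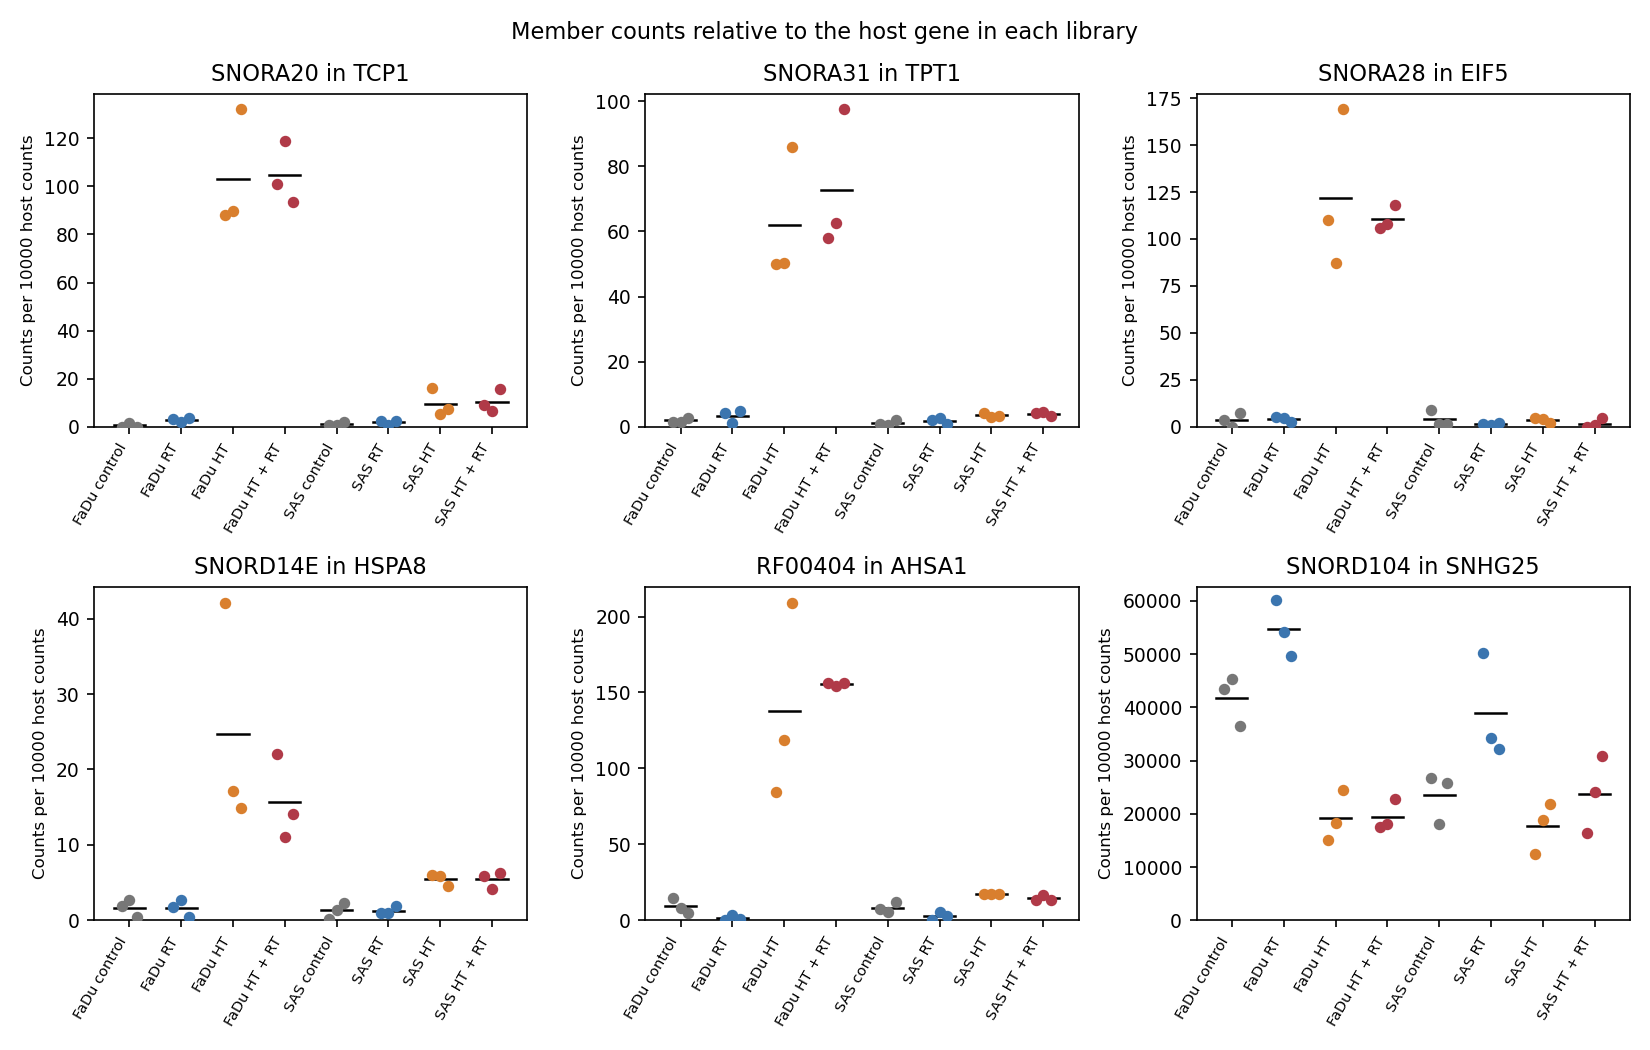
Counts on 6 members per 10000 counts on the host gene (vertical axes, from 0) in each library of the 8 groups (horizontal axes). Points are libraries and lines are means of 3; SNORA20, SNORA31, SNORA28, SNORD14E and RF00404 are highest in FaDu HT and HT + RT, and SNORD104 is highest in FaDu RT.

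Other snoRNA genes in the same hosts did not all follow. The 23 hosts of the altered members contain 47 snoRNA or scaRNA genes, of which 31 are members and 12 had no count in any library. In HSPA8, SNORD14E had 482 counts in FaDu HT, while SNORD14C and SNORD14D had 0 in all 24 libraries. SNORA29, beside SNORA20 in TCP1, also had 0. In KANSL2, SNORA2C had 135 counts in FaDu HT against 12 in control, whereas SNORA2A had 13 against 8 and SNORA2B had 1 against 4. In HSPA9, SNORD63 had 2 counts in FaDu control and 50 in HT, and 7 and 54 in SAS. A count of 0 may reflect how overlapping or repeated reads were counted, which was not tested.

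The response to heat differed between the spheroid types for a few members. A member could pass the usual filter through 1 group alone, so the counts here support no statement on the members as a whole. In edgeR, 3 of the 38 members tested had an altered spheroid type by HT interaction (2.74% of all 17219 genes): SNORA28 (FaDu minus SAS log2 difference 4.40, SE 1.17, adjusted p = 0.039), SNORA31 (3.47, SE 0.658, adjusted p = 0.0051) and SNORD104 (-1.04, SE 0.238, adjusted p = 0.018). SNORA28 lost this call without FaDu control replicate 1 or 2, FaDu HT replicate 3, SAS control replicate 1, or SAS HT replicate 1, 2 or 3. Without FaDu control replicate 1, or without SAS HT replicate 3, SNORD104 lost it too and only 1 of the 3 was altered. For HT + RT, 6 of 41 were altered (3.40% of 17219 genes): SNORA28 (5.08, SE 1.29), SNORA23 (3.77, SE 0.809), SNORA31 (3.52, SE 0.644), SNORA11F (2.58, SE 0.610), RF00404 (2.33, SE 0.657) and SNORD104 (-1.62, SE 0.203). Without SAS HT + RT replicate 2, only 3 remained altered, and RF00404 lost its call without any 1 of 11 of the 12 libraries and with all groups in 1 fit. SNORA11F lost its call without a filter, with all groups in 1 fit, and without FaDu control replicate 3, FaDu HT + RT replicate 1, or SAS HT + RT replicate 2 or 3. SNORA28 lost its call without SAS control replicate 1 or SAS HT + RT replicate 2. SNORA20, with a difference of 4.19 for HT (SE 1.50, adjusted p = 0.14), and SNORD14E, with 1.90 (SE 1.06, adjusted p = 0.4), did not pass. DESeq2 called SNORA20 in both interactions. With the replicate block 8 members had an altered HT + RT interaction (4.58% of all genes), adding SNORA20 and RF01233.

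No member was altered by RT in either type. In FaDu RT, 18 members were tested and edgeR called 0 (0.00643% of all 15552 genes were called), 5 had an unadjusted p under 0.05 (791 of the 15552 genes did), and DESeq2 also called 0. In SAS RT, 14 were tested and 0 called (0.0272% of 14680 genes), 7 had an unadjusted p under 0.05 (834 of the 14680 genes did), and DESeq2 also called 0. With replicate number as a block, which the pairing check allows in both, 2 were altered in FaDu RT (SNORD83A and SNORA73B, with 0.18% of all genes) and 1 in SAS RT (SNORD100, with 0.17%).

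The members with an unadjusted p under 0.05 were mostly higher after RT. SNORD104 had the smallest error among them, with a log2 fold change of 0.43 in FaDu RT (SE 0.0941, unadjusted p = 0.00141, edgeR adjusted p = 0.35) and 0.95 in SAS RT (SE 0.183, unadjusted p = 0.000299, adjusted p = 0.14), and in both types every RT library had more counts than every control. Without SAS RT replicate 3, SNORD104 was altered in SAS. SNORA73B, the U17 RNA that acts in cleavage of pre-ribosomal RNA, had 5, 6 and 6 counts in FaDu control and 20, 22 and 16 in RT (1.75, SE 0.393, edgeR adjusted p = 0.35), and in SAS its value was 1.06 (SE 0.382, adjusted p = 0.73). The others in FaDu were SNORD83A (2.16, SE 0.427), SNORD14A (1.33, SE 0.425) and the U3 RNA SNORD3A (0.92, SE 0.389). SNORD100 in RPS12 had 3, 3 and 3 counts in SAS control and 17, 13 and 17 in SAS RT (2.29, SE 0.442, edgeR adjusted p = 0.14). Also in SAS, SNORD99 (1.02, SE 0.395), SNORD62B (0.90, SE 0.395) and SNORA33 (0.87, SE 0.299) had positive values, and SNORD89, in RNF149, had -0.85 (SE 0.351).

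Adding RT to heat altered no member. In FaDu HT + RT against HT, edgeR called 0 of 41 members (0.0% of 16145 genes), 2 had an unadjusted p under 0.05 (361 of all genes did) and DESeq2 called 0. These were SNORA22B (-0.79, SE 0.298) and SNORD15B (0.86, SE 0.341). In SAS, edgeR called 0 of 18 (0.0% of 15341 genes), 5 had an unadjusted p under 0.05 (673 of all genes did) and DESeq2 called 0. All 5 in SAS had higher values with RT: SNORD83A (1.83, SE 0.614), SNORD99 (1.51, SE 0.464), SNORD14A (1.46, SE 0.492), SNORA33 (1.19, SE 0.475) and SNORD104 (0.56, SE 0.192), with edgeR adjusted p from 0.82 to 1.

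Untreated FaDu and SAS spheroids differed in 9 of the 13 members tested: 5 were higher in FaDu (21.2% of all 15810 genes were higher) and 4 lower (16.9%). A member could pass the filter through 1 type alone, so this share supports no statement on the members. Without a filter 13 of 80 members were altered (25.8% of all genes), and with all groups in 1 fit 12 of 54 (38.6%). SNORD17, in SNX5, had 19, 11 and 25 counts in FaDu control and 95, 105 and 89 in SAS control, and all 12 FaDu libraries lay below all 12 SAS libraries. Its log2 difference was -2.60 (SE 0.249, edgeR adjusted p = 3.3e-06), and no treatment altered it. SNORD89 (-2.46, SE 0.463), SNORA11F (-1.93, SE 0.386) and SNORD83A (-1.84, SE 0.466) were also lower in FaDu. Higher in FaDu were SNORD3B-1, a copy of the U3 RNA (2.40, SE 0.511), SCARNA13 (1.60, SE 0.353), SNORA71B (1.54, SE 0.455), SNORD60 in SNHG19 (1.31, SE 0.401) and SNORD104 (1.27, SE 0.131). Without FaDu control replicate 3, SNORA71B and SNORD60 lost their calls, and SNORD60 also without SAS control replicate 1. Of the 7 hosts of these members 2 were altered, both in the direction of the member: SNX5 (-1.37) and RPL3 (-1.40). Between controls 38.1% of all genes were altered, so this count supports no statement on the hosts.

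Transcripts of genes for proteins that bind and mature these RNAs stayed below the fold threshold after treatment. Of 23 snoRNP genes, comprising core proteins (FBL, NOP56, NOP58, SNU13, DKC1, NHP2, NOP10, GAR1), assembly factors (NAF1, SHQ1, NUFIP1, ZNHIT3, ZNHIT6, RUVBL1, RUVBL2, PIH1D1, RPAP3) and maturation or Cajal body factors (TGS1, PHAX, NOLC1, COIL, WRAP53, XPO1), edgeR called 0 in each comparison of a treatment with control. Of all genes, 4.97% to 6.36% were called in the comparisons with heat, and 0.00643% (FaDu) and 0.0272% (SAS) with RT alone. With so few genes in the list, 0 calls support no statement on it. At an unadjusted p under 0.05 there were 7 of the 23 in each of the 4 comparisons with heat and 1 in each with RT alone. Over all genes there were 4885 of 15879 in FaDu HT, 5081 of 15896 in FaDu HT + RT, 5323 of 15000 in SAS HT and 5392 of 14938 in SAS HT + RT. With RT alone there were 791 of 15552 in FaDu and 834 of 14680 in SAS. The 6 maturation and Cajal body genes had a median log2 fold change of -0.31 in FaDu HT and -0.26 in SAS HT, and the 8 core genes 0.14 and 0.04. Summed, the maturation and Cajal body genes averaged 904 CPM in FaDu control and 766 in HT, and in SAS 1091 and 931. COIL, which encodes the Cajal body scaffold coilin, had -0.87 in FaDu HT (SE 0.0958, adjusted p = 0.00061) and -0.52 in SAS HT (SE 0.126, adjusted p = 0.011), and the C/D core protein gene NOP58 had 0.23 and 0.51. Between controls, SNU13 was higher in FaDu (1.94) and NUFIP1 lower (-1.04).

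Most other short RNAs gave too few counts for a test. Of 21 gene identifiers (RMRP, RPPH1, RN7SK, RN7SL1, RN7SL2, spliceosomal, telomerase, vault and Y RNAs), RN7SL2, the signal recognition particle RNA, was the only 1 tested, with a mean of 37.2 CPM in FaDu control and 58.4 in FaDu HT (log2 fold change 0.67, SE 0.184, edgeR adjusted p = 0.036). In FaDu HT + RT, at 44.4 CPM, its libraries overlapped control (0.27, SE 0.170, edgeR adjusted p = 0.31). In SAS its values were -0.50 in HT (SE 0.191, edgeR adjusted p = 0.078) and -0.51 in RT (SE 0.183, adjusted p = 0.73). RN7SK and RN7SL1 had 0 counts in every library. Of 26 GAS5 and SNHG identifiers, 21 were tested after heat: SNHG15 rose in FaDu HT (1.08) and HT + RT (1.12), and SNHG19 (-1.14 and -1.30) and SNHG26 (-1.17 and -1.18) fell in both. In SAS HT SNHG21 rose (1.03) and SNHG3 fell (-1.32), and in SAS HT + RT SNHG4 rose (1.51). Of all genes, 4.97% were altered in FaDu HT, 5.72% in FaDu HT + RT, 6.03% in SAS HT and 6.36% in SAS HT + RT. These few calls support no statement on the list. RT altered none of the 21 in either type (0.00643% of all genes in FaDu and 0.0272% in SAS). At an unadjusted p under 0.05 there were 5 in FaDu (791 of 15552 genes) and 8 in SAS (834 of 14680).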

How the data were processed

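Total RNA was extracted by the authors, strand-marking libraries were prepared by a sequencing company, and the raw gene counts that the authors deposited were used as deposited; the aligner, counter, strand setting and annotation are not given in the sources used here. The submitters' processing notes name bcl2fastq, DESeq2 and the mouse build mm9, whereas the gene identifiers are human, so the build used for counting is uncertain. Gene class, position, host and length came from GENCODE v29 by gene identifier, which matched 56898 of 57500 genes. Control columns recurring in several tables were identical and used once.

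Counts were fitted with edgeR 4.0.16 (R 4.3.3, TMM, filterByExpr with a minimum count of 10, quasi-likelihood test, Benjamini-Hochberg adjustment over all genes), on the groups compared only. CPM used TMM factors over the 24 libraries. Replicates differed by more than counting error. In FaDu, replicate 1 stood apart in every group. Its count differences from replicates 2 and 3 gave a chi-square per gene of 15.1 to 22, against 3.51 to 5.09 between replicates 2 and 3. Its KRT8 level in FaDu control was 1274 CPM, against 2942 and 2819 in replicates 2 and 3. Replicate numbers came from the titles. Same-numbered libraries deviated together (every correlation over 0.1) in the FaDu comparisons of treatments, SAS RT and HT + RT, SAS HT + RT against HT, and the HT + RT interaction. The fits were also run on simulated data, and the outcome is not reported here. The alternatives were DESeq2 1.42.0, RLE factors, no filter, no fold threshold, all groups in 1 fit, a replicate block and leaving out each library.

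Named are all members altered by a treatment or in an interaction, the altered members between controls, the 10 highest per kilobase, those with an unadjusted p under 0.05 in a comparison that altered none, those beside the limit of 60, their hosts, and the list genes. The members and lists were chosen with earlier results of these data known.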

Additional observations from a re-analysis of the deposited data

Results flagged for a closer look

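A test of the difference between FaDu and SAS drew attention to the following genes, whose log2 response in FaDu minus that in SAS passed the thresholds in edgeR. For HT these were SNORA28 (4.40), SNORA31 (3.47) and SNORD104 (-1.04), and for HT + RT SNORA28 (5.08), SNORA23 (3.77), SNORA31 (3.52), SNORA11F (2.58), RF00404 (2.33) and SNORD104 (-1.62). Among the other lists they were COL1A1 (-3.76), RN7SL2 (1.21), SNHG26 (-1.18) and SNHG4 (-1.44) for HT, and COL1A1 (-3.76), SNHG20 (-1.03), SNHG19 (-1.19), SNHG26 (-1.18) and SNHG4 (-1.89) for HT + RT. Baseline levels differ between the types, as does the radiation dose in HT + RT, and their part was not tested.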

How the results depend on the processing

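No called member changed sign under any alternative. Without a filter on low counts the members altered numbered 1 in FaDu RT (0.0867% of all genes), 24 in FaDu HT (3.9%), 31 in FaDu HT + RT (4.51%), 2 in SAS RT (0.104%), 12 in SAS HT (4.31%), 11 in SAS HT + RT (4.75%) and 5 in the HT interaction (1.85%). With all groups in 1 fit FaDu HT gave 20 (6.22%), and with DESeq2 the HT interaction gave 5 (3.35%). The filter blind to the groups, chosen after seeing the data, gave 22 in FaDu HT, 29 in FaDu HT + RT and 11 in SAS HT. These filters test more members. With the replicate block FaDu RT gave 2 and SAS RT 1; where the numbers do not pair, SAS HT (lowest correlation 0.041) stayed at 6 (6.1% of all genes), the controls (-0.03) at 9 (37.9%), and the HT interaction (0.028) gave 4 (3.94%). In the paired comparisons the block changed no call other than those given with the results. DESeq2 lost SNORA71B in FaDu HT, SNORA3B and SCARNA12 in FaDu HT + RT, SNORD14A in SAS HT + RT and SNORD60 between controls; the cause was not tested.

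Leaving out each library gave ranges of altered members, with the fewest and most of all genes altered in parentheses. In FaDu they were 12 to 16 in HT (612 of 16207 to 964 of 16397) and 14 to 20 in HT + RT (701 of 16202 to 1127 of 16411). In SAS they were 0 to 1 in RT (0 of 14917 to 5 of 14970) and 6 to 9 in HT (815 of 15337 to 939 of 15444). SAS HT + RT gave 6 to 7 (935 of 15208 to 1046 of 15515), and the controls 8 to 10 (6141 of 16174 to 6438 of 16318). The HT interaction gave 1 to 3 (368 of 17843 to 523 of 17777), and the HT + RT interaction 3 to 6 (487 of 17766 to 636 of 17759). Depth limits these results: the median member had 183.5 counts over 24 libraries, and 29 members were tested in no comparison.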
